A study of Mus musculus with 20 samples.

Results

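The 42 mouse genes described here encode proteins of the synaptic vesicle and of the active zone, the patch of presynaptic membrane where vesicles release their transmitter. They were listed by symbol for these roles, with no measured value in the rule, and fall into 6 roles: vesicle membrane proteins and synapsins (7 genes), synaptotagmins (8), SNARE proteins and their regulators (7), Rab3 and active zone proteins (10), endocytosis proteins (7) and vesicular transmitter transporters (3). All 42 were found among the 38414 genes listed in at least 1 of the 4 expression tables of the series, of which 25625 were in every table. Expression was given as TPM, a transcript level scaled for gene length and library size, so that levels of different genes within a table can be compared.

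A synaptic vesicle is filled with transmitter by a vesicular transporter, held near the membrane by Rab3 and large scaffold proteins such as Bassoon, Piccolo, RIM and ELKS, and primed for release by Munc13. SNARE proteins then fuse it with the membrane when a synaptotagmin binds calcium, and dynamin, amphiphysin, endophilin and synaptojanin retrieve the membrane. Newly born neurons already transcribe many of these genes, before mature synapses exist.

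The study applied a method that marks RNA near a chosen protein by base editing in tissue sections of C57BL/6J wild-type mice, here for G3BP1, a protein of stress granules that binds RNA. Sections received a primary antibody, either anti-G3BP1 or a rabbit IgG control, then a secondary antibody raised in guinea pig against rabbit IgG, and last the enzyme fusion rAPOBEC1-pAG-hADAR2. The APOBEC1 part deaminates cytosine, read as a C-to-T change, and the ADAR2 part deaminates adenosine, read as an A-to-G change. Total RNA was extracted with TRIzol and made into libraries with a Vazyme VAHTS Universal V6 kit. There were 20 libraries in 10 groups of 2 replicates: IgG and anti-G3BP1 in fixed embryos at E10.5 (E stands for embryonic day), in embryos labelled E10.5 fresh frozen, in fresh-frozen E12.5 brain and in fresh-frozen E16.5 brain, and untreated libraries for both kinds of E10.5 embryo. All antibody libraries carried 0.2% formaldehyde in their labels, the fresh-frozen ones too. Untreated libraries had no antibody and no enzyme, and those named as fixed embryo were also labelled as having no fixation. No untreated library of either table had a formaldehyde percentage in its labels. IgG and untreated libraries thus differ in antibody, enzyme and formaldehyde label, and these cannot be told apart. Whether replicates came from separate animals is not in the labels, and the p-values therefore reflect the spread among these libraries alone, which could be technical.

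The 6 libraries labelled as fresh-frozen E10.5 embryo went against that label in their content, and are called the FF-labelled libraries from here on. Their summed level of 6 cardiac markers was 6.84 to 27.6 TPM and of 6 fetal liver markers 4.94 to 11.8 TPM, against 3361 to 5292 and 448 to 998 TPM in the fixed embryos. Of 6 trunk patterning markers 4 were listed, at 0 to 1.88 TPM in all. The 10 pan-neuronal markers summed to 6300 to 8835 TPM there, 6792 to 6963 TPM in E16.5 brain, 3742 to 4546 TPM in E12.5 brain and 936 to 1913 TPM in the fixed embryos. Between 17310 and 25508 genes reached 1 TPM in a library, with the highest number in the first IgG library of the FF-labelled table, whose other 5 libraries had 20770 to 21514. Correlations between replicates of a group, over genes on the log2 scale, were 0.938 to 0.991.

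Edits were read at single bases, and the sites that recurred in Sv2a, Rab3a and Amph are shown here. In the FF-labelled libraries these 3 genes held the 3 followed A-to-G sites with the largest differences between anti-G3BP1 and IgG. Each window has 21 bases, written 5′ to 3′ on the strand of the gene, with the edited A in capitals. Positions are on mm10, the annotation is GENCODE M21, and all 3 genes lie on the plus strand. Sv2a (ENSMUSG00000038486.9, chr3:96181151-96195521) encodes a transporter-like glycoprotein of the vesicle membrane, Rab3a (ENSMUSG00000031840.12, chr8:70754679-70758677) the vesicle GTPase that binds RIM, and Amph (ENSMUSG00000021314.12, chr13:18948205-19150921) amphiphysin, which links dynamin to clathrin coats. The Sv2a windows lie in the 3′ UTR in exon 13 of 13, the Amph windows in the 3′ UTR, the second of them in exon 21 of 21, and the first Rab3a window in the coding part of exon 4 of 4, where the edit is synonymous. The other Rab3a windows lie in its 3′ UTR.
Sv2a chr3:96194603-96194623: agccaagagtAgtagtttcag
Sv2a chr3:96194682-96194702: ggctggaggcAgaacccctag
Sv2a chr3:96194767-96194787: tccttgctctAgagaggttct
Sv2a chr3:96194778-96194798: gagaggttctAcccactagcc
Rab3a chr8:70757997-70758017: tggatactgcAgaccctgcgg
Rab3a chr8:70758371-70758391: gggcctgccaAccccgaggct
Rab3a chr8:70758470-70758490: aatggggtgtAggggatatat
Amph chr13:19150651-19150671: gtagctgcccAgctgctcagt
Amph chr13:19150688-19150708: actagcaactAtgcagtcatc

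The 42 genes summed to 515 ± 46.5 TPM (SD, 6 libraries) in the fixed E10.5 embryos, 1681 ± 180 TPM (SD, 4 libraries) in E12.5 brain, 4973 ± 238 TPM (SD, 4 libraries) in E16.5 brain and 6061 ± 359 TPM (SD, 6 libraries) in the FF-labelled libraries. No library of one table overlapped with a library of another, the sums being 478 to 604, 1523 to 1865, 4699 to 5273 and 5795 to 6733 TPM. Set against the pan-neuronal markers of the same library, the sum of the 42 genes was 0.390 ± 0.122, 0.420 ± 0.0423, 0.722 ± 0.0331 and 0.837 ± 0.107 times as high in the same order. All 42 genes reached 1 TPM in every library of both brain tables and of the FF-labelled libraries, and 30 did so in the fixed embryos, where 4 stayed under 1 TPM in every library. The tables were normalized separately by the authors, and stage, tissue, preparation and table cannot be told apart. In bulk tissue, fewer cells of a type and less RNA per cell cannot be told apart either.

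**Figure D1:**
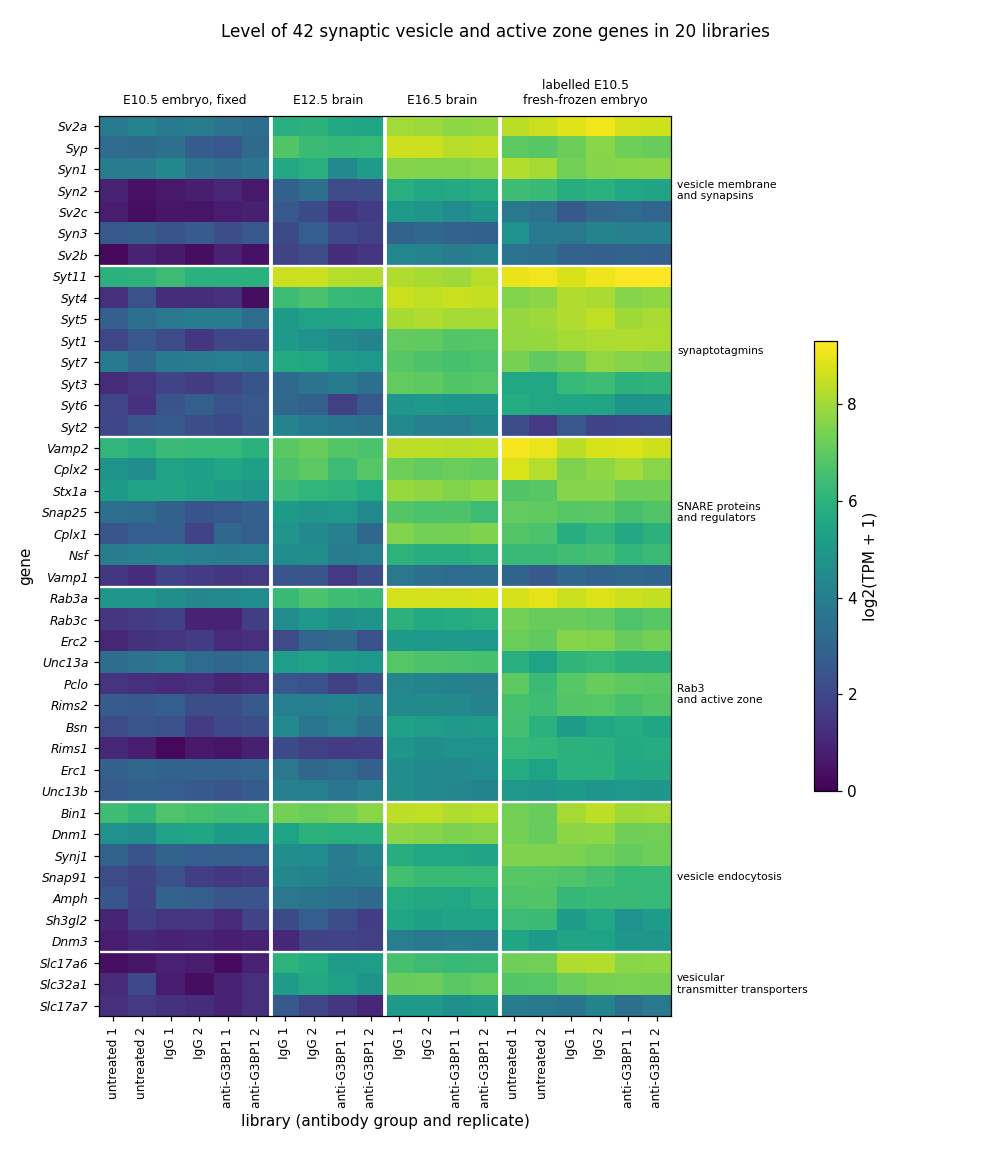
Heat map of log2(TPM + 1) for the 42 genes (rows, grouped by role) in the 20 libraries (columns, grouped by table, antibody group and replicate). The darkest block is the fixed E10.5 embryo and the brightest are E16.5 brain and the FF-labelled libraries, with summed levels of 515, 4973 and 6061 TPM.

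From the fixed E10.5 embryo to E12.5 brain, 34 of the 42 genes were higher and 0 were lower. This was a comparison of 4 antibody libraries with 4 by limma on log2(TPM + 1), with adjusted p (Benjamini-Hochberg over all genes) under 0.05. The scale understates the change of genes with low TPM. Of all 20248 genes tested, 29.3% were higher and 19.6% lower, and the median log2 change was 1.42 for the 42 genes and 0.13 for all genes. At an unadjusted p under 0.05, 36 of the 42 passed. By role, 6 of 7 vesicle membrane and synapsin genes, 7 of 8 synaptotagmins, 5 of 7 SNARE genes, 9 of 10 Rab3 and active zone genes, 5 of 7 endocytosis genes and 2 of 3 transporters were higher. Beside these, 9 of 10 pan-neuronal and 8 of 9 neural progenitor markers were higher and all 6 cardiac, 6 fetal liver and 6 trunk markers were lower, and their part in the result was not tested.

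Values below are deposited TPM in the order IgG replicates 1 and 2, then anti-G3BP1 replicates 1 and 2. Syt4, a synaptotagmin that does not bind calcium well, was at 1.34, 1.34, 1.4 and 0.256 TPM in the fixed embryos and at 82.5, 97.9, 73.7 and 73.4 TPM in E12.5 brain. Its log2 change of 5.35 ± 0.21 (SE; limma, adjusted p = 6.28e-07) was the largest of the 42. Syt1, the main calcium sensor of fast release, went from 3.36, 1.78, 2.99 and 3.05 TPM to 31.2, 26.2, 21.2 and 17.1 TPM, a change of 2.71 ± 0.23 (SE; adjusted p = 2.96e-05). For both genes every E12.5 library lay far above every fixed embryo library. Syt11, which does not bind calcium, was already at 60.2 to 83.4 TPM in the fixed embryos and reached 376, 378, 307 and 303 TPM (change 2.35 ± 0.10, SE; adjusted p = 1.03e-06). It was the most abundant of the 8 synaptotagmins in both tables.

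Slc17a6, the vesicular glutamate transporter VGLUT2, was near absent in the fixed embryos at 0.827, 0.688, 0.216 and 0.830 TPM and stood at 63.6, 54.2, 34.2 and 35.8 TPM in E12.5 brain. The log2 change was 4.84 ± 0.20 (SE; limma, adjusted p = 8.72e-07). Slc32a1, the transporter that loads GABA and glycine, went from 0.620, 0.266, 0.835 and 1.42 TPM to 34.7, 47.9, 39.8 and 27.0 TPM (4.44 ± 0.26, SE; adjusted p = 4.3e-06). Both groups were far apart for both genes. Slc17a7, the VGLUT1 transporter, stayed low at 1.52, 1.31, 0.866 and 1.39 TPM against 5.04, 2.90, 1.76 and 1.03 TPM, and did not pass the test (0.59, adjusted p = 0.138).

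Among vesicle membrane genes, Syp, which encodes synaptophysin, was at 9.82, 5.52, 4.70 and 8.36 TPM in the fixed embryos and at 108, 81.3, 73.2 and 74.4 TPM in E12.5 brain (3.43 ± 0.21, SE; limma, adjusted p = 5.78e-06). Sv2a went from 13.2, 14.4, 10.7 and 9.24 TPM to 56.1, 62.3, 45.6 and 43.0 TPM (2.04 ± 0.11, SE; adjusted p = 2.72e-06). Syn1, a synapsin that tethers vesicles to one another, went from 19.3, 11.03, 9.20 and 10.9 TPM to 47.6, 57.2, 20.1 and 34.7 TPM (1.54 ± 0.23, SE; adjusted p = 0.000666). Syn1 had the narrowest gap of the 3, since its lowest E12.5 library was just above its highest fixed embryo library. The exception in this role was Syn3, with a change of -0.27 (adjusted p = 0.381).

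Rab3c, a close relative of Rab3a, was at 2.55, 0.925, 0.904 and 2.27 TPM in the fixed embryos and at 21.7, 30.9, 24.4 and 27.0 TPM in E12.5 brain (3.39 ± 0.27, SE; limma, adjusted p = 1.82e-05). Rab3a was already at 23.3, 18.9, 19.7 and 22.1 TPM and reached 76.7, 103, 83.9 and 79.4 TPM (1.97 ± 0.12, SE; adjusted p = 6.05e-06). Bsn, the scaffold Bassoon, went from 4.09, 2.19, 3.12 and 3.69 TPM to 20.7, 11.5, 14.9 and 9.84 TPM (1.81 ± 0.27, SE; adjusted p = 0.000633). None of these 3 genes had overlapping groups. Among endocytosis genes, Snap91, the clathrin adaptor AP180, was at 4.10, 2.28, 1.83 and 2.07 TPM and then at 18.7, 17.6, 13.7 and 14.0 TPM (2.28 ± 0.19, SE; adjusted p = 2.67e-05). Synj1, the synaptojanin that strips clathrin coats, changed by 1.51 ± 0.16 (SE; adjusted p = 9.44e-05) and Bin1, an amphiphysin relative that muscle also expresses, by 0.83 ± 0.11 (SE; adjusted p = 0.000434).

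Of the fusion machinery, Snap25, a SNARE of the presynaptic membrane, was at 6.50, 4.37, 4.98 and 6.16 TPM in the fixed embryos and at 33.1, 28.0, 31.0 and 20.8 TPM in E12.5 brain (2.16 ± 0.19, SE; limma, adjusted p = 3.56e-05). Cplx1, a complexin that clamps and promotes SNARE fusion, went from 5.89, 2.71, 7.82 and 5.91 TPM to 28.4, 20.5, 15.7 and 7.86 TPM (1.48 ± 0.40, SE; adjusted p = 0.0142). Its groups met almost without a gap, while those of Snap25 were well apart. Cplx2, its partner gene, changed by 1.39 ± 0.14 (SE; adjusted p = 6.66e-05). The general fusion ATPase Nsf (0.23, adjusted p = 0.221) and the vesicle SNARE Vamp1 (0.52, adjusted p = 0.0989) did not pass the test, nor did Syt6 (0.04, adjusted p = 0.917), Erc1 (0.27, adjusted p = 0.301), Sh3gl2 (0.72, adjusted p = 0.0743) and Dnm3 (0.74, adjusted p = 0.0519).

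From E12.5 to E16.5 brain, 39 of the 42 genes were higher and 0 were lower in the same limma test, against 32.3% higher and 17.7% lower of 20162 genes. The median log2 change was 1.90 for the 42 genes and 0.17 for all genes, and all 42 had an unadjusted p under 0.05. All 7 vesicle membrane and synapsin genes, 7 SNARE genes, 7 endocytosis genes and 3 transporters were higher, with 6 of 8 synaptotagmins and 9 of 10 Rab3 and active zone genes. Beside them 8 of 10 pan-neuronal markers were higher (median log2 change 0.85), 8 of 9 progenitor markers were lower (median -1.69) and 5 of 7 astroglial markers were higher (median 1.80). All 3 trunk patterning markers tested were higher (median 1.87, with a summed level of 0 to 2.72 TPM in E12.5 brain and 88.9 to 136 TPM in E16.5 brain), with 5 of 6 endothelial, 5 of 6 oligodendrocyte lineage and 3 of 6 microglial markers. The part of these markers in the result was not tested. The 3 genes that did not pass were Syt11 (-0.26, adjusted p = 0.0629), Rims2 (0.33, adjusted p = 0.0675) and Syt2 (0.43, adjusted p = 0.0691).

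Syt3, a high-affinity calcium sensor, was at 8.09, 10.9, 13.8 and 9.62 TPM in E12.5 brain and at 134, 129, 109 and 114 TPM in E16.5 brain. Its log2 change of 3.42 ± 0.16 (SE; limma, adjusted p = 1.34e-06) was the largest of the 42 in this comparison. Syt5, a calcium sensor related to Syt1, went from 32.6, 40.6, 42.9 and 43.6 TPM to 275, 293, 266 and 276 TPM (2.77 ± 0.10, SE; adjusted p = 5.44e-07), and Syt6 changed by 2.39 ± 0.23 (SE; adjusted p = 5.01e-05). The groups of Syt3 and Syt5 were separated by a wide gap.

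Cplx1 was at 28.4, 20.5, 15.7 and 7.86 TPM in E12.5 brain and at 186, 160, 165 and 180 TPM in E16.5 brain (3.31 ± 0.26, SE; limma, adjusted p = 1.65e-05), and its E12.5 libraries were spread widely. Cplx2 was high at both stages, at 104, 125, 82.0 and 115 TPM and then 154, 134, 149 and 136 TPM, and its change was small (0.44). Snap25 (1.80 ± 0.14, SE; adjusted p = 1.64e-05) and Stx1a, the syntaxin of the presynaptic membrane (1.68 ± 0.10, SE; adjusted p = 4.19e-06), were higher as well. The vesicle SNARE Vamp2, at 121, 142, 112 and 102 TPM in E12.5 brain, stood at 337, 330, 318 and 331 TPM in E16.5 brain, with no overlap.

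Sh3gl2, endophilin A1 of the endocytic neck, was at 3.26, 5.92, 3.67 and 2.2 TPM in E12.5 brain and at 43.6, 38.0, 42.6 and 41.7 TPM in E16.5 brain (3.21 ± 0.22, SE; limma, adjusted p = 7.24e-06). Every E16.5 library was several times above every E12.5 library. Snap91 changed by 2.27 ± 0.10 (SE; adjusted p = 1.11e-06) and Dnm3, a dynamin of neurons and testis, by 2.25 ± 0.22 (SE; adjusted p = 5.43e-05). Slc17a7, low until then, was at 5.04, 2.90, 1.76 and 1.03 TPM in E12.5 brain and at 31.8, 31.2, 24.6 and 27.5 TPM in E16.5 brain (3.13 ± 0.24, SE; adjusted p = 1.24e-05). Slc32a1 reached 142, 146, 121 and 134 TPM (1.86 ± 0.14, SE; adjusted p = 1.48e-05) and Slc17a6 reached 96.8, 83.3, 78.7 and 79.9 TPM (0.88 ± 0.13, SE; adjusted p = 0.000599). All 3 transporters were without overlap between the stages.

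Syn2, the second synapsin, went from 6.49, 9.91, 3.42 and 3.71 TPM to 56.7, 47.6, 50.9 and 54.4 TPM (3.05 ± 0.23, SE; limma, adjusted p = 1.2e-05). Sv2c, an Sv2a relative enriched in the basal ganglia, went from 4.80, 3.29, 1.58 and 2.17 TPM to 33.2, 27.9, 21.8 and 27.2 TPM (2.90 ± 0.20, SE; adjusted p = 7.61e-06), and Sv2b changed by 2.43 ± 0.20 (SE; adjusted p = 1.72e-05). In each, the lowest E16.5 library was above the highest E12.5 library. Rims1, a RIM scaffold that recruits calcium channels, was at 3.23, 2.43, 2.05 and 2.34 TPM and then at 28.5, 24.1, 26.6 and 24.9 TPM (2.95 ± 0.17, SE; adjusted p = 2.93e-06). Rab3a reached 407, 407, 412 and 427 TPM (2.27 ± 0.10, SE; adjusted p = 9.9e-07), and its 4 E16.5 libraries lay close together. Erc2, an ELKS scaffold, changed by 2.32 ± 0.25 (SE; adjusted p = 9.11e-05). Rims2, the other RIM gene, was at 15.3, 15.2, 17.5 and 14.1 TPM and then at 20.8, 20.8, 20.5 and 17.2 TPM, where the lowest E16.5 library fell inside the E12.5 range.

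The FF-labelled libraries were set beside E16.5 brain because their neuronal marker content was closest to it. Pan-neuronal and progenitor markers summed to means of 7346 and 1300 TPM, against 6889 and 2042 in E16.5 and 4009 and 4037 in E12.5 brain. Other lists were closer to E12.5 brain. Trunk, endothelial, oligodendrocyte lineage and microglial means were 0.581, 159, 121 and 58.2 TPM. They were 1.38, 95.1, 89.6 and 53.9 TPM in E12.5 brain and 119, 318, 199 and 85.3 TPM in E16.5 brain. Of the 42 genes, 20 were higher and 12 lower in them by limma, against 37.8% higher and 23.0% lower of 23026 genes, and 33 had an unadjusted p under 0.05. The median log2 change was 0.25 for the 42 genes and 0.20 for all genes. Rab3 and active zone genes were mostly higher (7 of 10, with 1 lower and a median of 1.12), and the other roles were mixed: 2 higher and 3 lower among 7 vesicle membrane and synapsin genes, 3 and 3 among 8 synaptotagmins, 3 and 3 among 7 SNARE genes, 3 and 1 among 7 endocytosis genes, and 2 and 1 among 3 transporters. Of the marker lists, 5 of 10 pan-neuronal markers were higher and 3 lower (median 0.26), and 6 of 7 astroglial markers were lower and 1 higher (median -1.30). Both trunk patterning markers tested were lower (median -4.26, with a summed level of 0 to 1.88 TPM against 88.9 to 136 TPM in E16.5 brain), as were 4 of 6 oligodendrocyte lineage markers with 1 higher (median -1.08), 3 of 6 endothelial markers with 1 higher, 2 of 9 progenitor markers with 2 higher and 2 of 6 microglial markers with 0 higher. The part of these markers in the result was not tested.

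**Figure D2:**
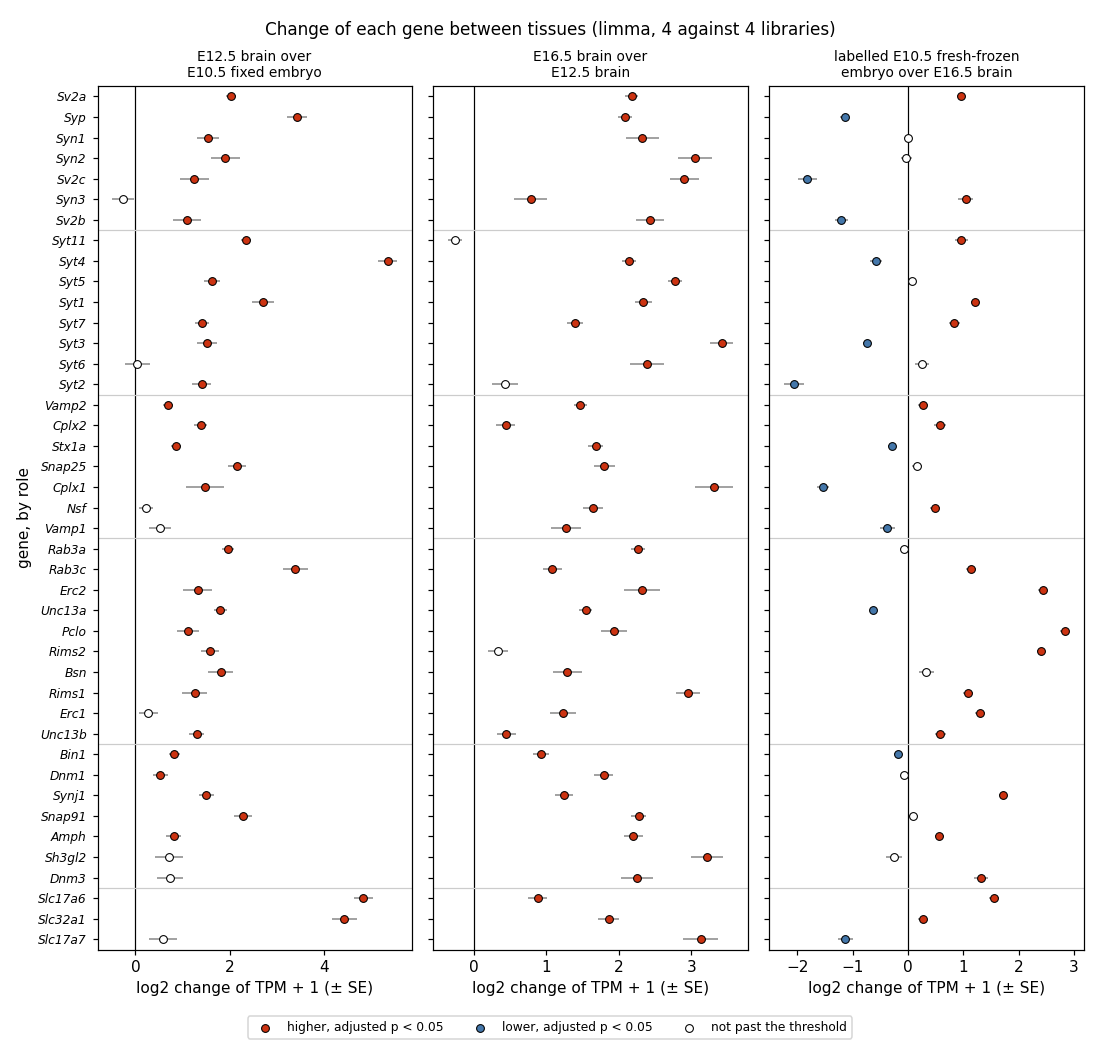
Log2 change of TPM + 1 (horizontal axis, point with ± SE bar) of each of the 42 genes (vertical axis, by role) in 3 comparisons of 4 antibody libraries with 4, with red for higher, blue for lower and white for not past the threshold. The first and second panels have 34 and 39 red points and 0 blue ones, and the third has 20 red and 12 blue.

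The genes with the largest increases were 3 scaffolds of the active zone. Pclo, the giant scaffold Piccolo, was at 18.9, 17.4, 16.1 and 15.9 TPM in E16.5 brain and at 118, 142, 128 and 121 TPM in the FF-labelled libraries (2.83 ± 0.08, SE; limma, adjusted p = 1.41e-08). Erc2 went from 32.4, 30.4, 31.3 and 30.1 TPM to 196, 189, 140 and 166 TPM (2.43 ± 0.09, SE; adjusted p = 4.36e-08), and Rims2 from 20.8, 20.8, 20.5 and 17.2 TPM to 113, 116, 97.1 and 110 TPM (2.40 ± 0.08, SE; adjusted p = 2.76e-08). For all 3 the groups were several-fold apart and the untreated libraries of the same table, at 129 and 80.6 TPM for Pclo, 147 and 130 TPM for Erc2 and 95.2 and 85.5 TPM for Rims2, were also above every E16.5 library. Unc13a, the Munc13 priming factor, was the 1 active zone gene that was lower, at 66.8, 75.4, 62.1 and 61.9 TPM against 115, 105, 97.8 and 96.8 TPM (-0.63 ± 0.06, SE; adjusted p = 2.7e-05). Rab3a did not differ past the threshold (-0.08, adjusted p = 0.387).

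Synj1 was at 178, 160, 139 and 152 TPM in the FF-labelled libraries and at 54.6, 46.3, 45.7 and 42.3 TPM in E16.5 brain (1.72 ± 0.08, SE; limma, adjusted p = 1.36e-07). Slc17a6 was at 293, 303, 203 and 214 TPM against 96.8, 83.3, 78.7 and 79.9 TPM (1.56 ± 0.09, SE; adjusted p = 4.19e-07), and Syt1 at 267, 289, 295 and 286 TPM against 133, 131, 112 and 114 TPM (1.21 ± 0.07, SE; adjusted p = 6.35e-07). All 3 were without overlap. Dnm3 (1.31 ± 0.12, SE; adjusted p = 1.33e-05), Syt11 (0.96 ± 0.11, SE; adjusted p = 6.07e-05), Cplx2 (0.58 ± 0.10, SE; adjusted p = 0.000886), Amph (0.57 ± 0.08, SE; adjusted p = 0.000155), Nsf (0.48 ± 0.09, SE; adjusted p = 0.00113) and Slc32a1 (0.27 ± 0.08, SE; adjusted p = 0.0171) were higher by less.

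Syt2, the calcium sensor of fast hindbrain and spinal synapses, was at 4.80, 2.66, 3.08 and 3.30 TPM in the FF-labelled libraries and at 20.04, 15.9, 14.9 and 19.4 TPM in E16.5 brain (-2.07 ± 0.18, SE; limma, adjusted p = 9.05e-06). Sv2c was at 5.13, 7.46, 8.56 and 7.15 TPM against 33.2, 27.9, 21.8 and 27.2 TPM (-1.82 ± 0.17, SE; adjusted p = 1.59e-05), and Cplx1 at 54.9, 69.4, 48.7 and 62.7 TPM against 186, 160, 165 and 180 TPM (-1.54 ± 0.11, SE; adjusted p = 2.03e-06). Syp was at 150, 201, 152 and 143 TPM against 390, 391, 315 and 337 TPM (-1.15 ± 0.09, SE; adjusted p = 3.42e-06). No library of one group reached the range of the other in these 4 genes. Slc17a7 was at 11.4, 17.5, 9.78 and 12.3 TPM against 31.8, 31.2, 24.6 and 27.5 TPM (-1.13 ± 0.14, SE; adjusted p = 8.75e-05), and Sv2b was lower by a like amount (-1.21 ± 0.12, SE; adjusted p = 1.79e-05).

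The smaller decreases were those of Syt3 (-0.74 ± 0.07, SE; limma, adjusted p = 8.78e-06), Syt4 (-0.58 ± 0.10, SE; adjusted p = 0.00102), Vamp1 (-0.38 ± 0.14, SE; adjusted p = 0.0364), Stx1a (-0.29 ± 0.07, SE; adjusted p = 0.00621) and Bin1 (-0.19 ± 0.07, SE; adjusted p = 0.0492). Their E16.5 levels were 134, 129, 109 and 114 TPM for Syt3, 377, 346, 378 and 348 TPM for Syt4, and 335, 343, 297 and 307 TPM for Bin1. The corresponding levels in the FF-labelled libraries were 75.3, 85.3, 62.5 and 65.5 TPM, 294, 282, 196 and 209 TPM, and 269, 337, 255 and 264 TPM. Syt3 and Syt4 were apart in every library, whereas the groups of Bin1 overlapped. Syn1, at 160, 194, 203 and 207 TPM against 190, 187, 187 and 199 TPM, overlapped and did not pass (adjusted p = 0.996).

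A list of 74 other presynaptic genes moved with the 42 in the first comparisons. From the fixed embryo to E12.5 brain 45 of 71 tested were higher and 5 lower (median 0.80), with Slc17a8, the VGLUT3 transporter, at 3.84 ± 0.33 (SE; limma, adjusted p = 3.16e-05) and Slc18a3, the vesicular acetylcholine transporter, at -3.81 ± 0.47 (SE; adjusted p = 0.000222). From E12.5 to E16.5 brain 61 of 72 were higher and 1 lower (median 1.32), led by Sncb, the synuclein beta gene (4.20 ± 0.24, SE; adjusted p = 2.86e-06), and Syngr1, a synaptogyrin of the vesicle membrane (3.31 ± 0.17, SE; adjusted p = 1.94e-06). Against E16.5 brain, 29 of 73 were higher and 28 lower in the FF-labelled libraries (median -0.09), with the largest change in Lin7a, a scaffold of the presynaptic Lin complex (3.47 ± 0.14, SE; adjusted p = 7.59e-08).

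By limma, 0 of the 42 genes passed for anti-G3BP1 over IgG within any of the 4 tables. In the fixed embryo, the FF-labelled libraries, E12.5 brain and E16.5 brain, 0.0%, 0.0%, 0.0% and 0.0108% of all genes passed as higher. In each of them 0.0% passed as lower. Most estimates were below 0, with 9 of 35, 13 of 42, 7 of 42 and 8 of 42 above it. Their median log2 changes were -0.16, -0.21, -0.34 and -0.13, against -0.12, -0.002, -0.15 and -0.02 for all genes. The summed level of the 42 genes was lower in both anti-G3BP1 libraries than in both IgG libraries of every table. In E12.5 brain the sums were 1523 and 1531 against 1805 and 1865 TPM. The difference in sums was not tested. At an unadjusted p under 0.05, 3 of 35, 14 of 42, 6 of 42 and 6 of 42 differed in that order. IgG over untreated gave 0 calls in the fixed embryo (background 0.0%, 7 of 36 at an unadjusted p under 0.05). For the FF-labelled libraries it gave 4 higher and 1 lower of 42, with 22 at an unadjusted p under 0.05 and a background of 2.81% higher and 3.11% lower. Beside this, the progenitor markers summed to 854 and 856 TPM with IgG and 1332 and 1575 TPM untreated (3 of 9 lower), the astroglial markers to 242 and 267 TPM against 414 and 416 TPM (2 of 5 tested lower) and the pan-neuronal markers to 6646 and 7415 TPM against 8314 and 8835 TPM (0 of 10 lower), and their part in the result was not tested.

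Slc17a6 was at 293 and 303 TPM with IgG and at 153 and 160 TPM untreated (0.93 ± 0.11, SE; limma, adjusted p = 0.0302), Bin1 at 269 and 337 TPM against 161 and 142 TPM (0.99 ± 0.16, SE; adjusted p = 0.0376), and Stx1a at 196 and 197 TPM against 109 and 119 TPM (0.78 ± 0.12, SE; adjusted p = 0.0344). Syt3 was higher as well, at 75.3 and 85.3 TPM against 47.4 and 45.4 TPM (0.78 ± 0.13, SE; adjusted p = 0.0418), and Sh3gl2 was lower, at 34.1 and 47.6 TPM against 83.7 and 80.7 TPM (-1.01 ± 0.19, SE; adjusted p = 0.0487). The 2 anti-G3BP1 libraries lay between IgG and untreated for Slc17a6 (203 and 214 TPM), Bin1 (255 and 264 TPM) and Stx1a (151 and 155 TPM) and below both for Sh3gl2 (25.7 and 33.5 TPM), except that Bin1 in the first IgG library was close to them. These 5 calls depended on the fit: their number changed when 1 library was left out, and blocking by replicate number left 0. IgG and untreated libraries also differed in the formaldehyde label, and its part in the calls was not tested.

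Editing was measured as the share of reads at listed sites that carried the edited base, summed over the sites of a gene with at least 10 reads in every library of a table. A read that covers several sites counts at each. Sites kept in the 42 genes numbered 54 of 120 in the fixed embryo, 902 of 1172 in the FF-labelled libraries, 599 of 1846 in E12.5 brain and 2784 of 2983 in E16.5 brain, and lay in 12, 38, 25 and 41 of the genes. Genes with at least 50 such reads in every library, 7, 36, 20 and 41 of the 42, were tested. Reads over these genes in a library were 1075 to 6459, 67530 to 101823, 10896 to 29600 and 343790 to 655952, so that the fixed embryo and E12.5 brain gave little precision. The median gene of the 42 had 2, 8, 0 and 22 edited reads in a library, where the median of all tested genes was 3, 4, 1 and 7.

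Pooled over these sites in the FF-labelled libraries, A-to-G edits were in 1.55% and 1.66% of reads with anti-G3BP1, 0.640% and 0.660% with IgG and 0.238% and 0.275% in untreated libraries. C-to-T edits were in 0.721% and 0.732%, 0.426% and 0.524%, and 0.306% and 0.25%. The 3 groups were in the same order for both kinds of edit and did not overlap. In E16.5 brain A-to-G edits were in 0.400% and 0.468% of reads against 0.240% and 0.204% with IgG, and C-to-T edits in 0.187% and 0.183% against 0.135% and 0.153%. E12.5 brain gave 0.335% and 0.146% against 0.0573% and 0.123% for A-to-G, and 0.229% and 0.143% against 0.120% and 0.0895% for C-to-T. In the fixed embryo the A-to-G shares were 0.673% and 0% with anti-G3BP1, 0.635% and 0.638% with IgG and 0.462% and 0.504% untreated, over 15 sites, and the groups overlapped.

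Outside the fixed embryo the pooled ratio of anti-G3BP1 to IgG was close to that of all genes. For A-to-G it was 2.47-fold against 2.24-fold in the FF-labelled libraries, 1.958-fold against 1.90-fold in E16.5 brain and 2.67-fold against 2.34-fold in E12.5 brain. For C-to-T it was 1.53-fold against 1.56-fold, 1.29-fold against 1.39-fold and 1.78-fold against 1.63-fold. In the fixed embryo the 42 genes gave 0.528-fold for A-to-G and 0.858-fold for C-to-T, where all genes gave 1.33-fold and 1.24-fold. IgG was itself above untreated by 2.53-fold for A-to-G and 1.71-fold for C-to-T in the FF-labelled libraries, where all genes gave 2.09-fold and 1.52-fold.

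**Figure D3:**
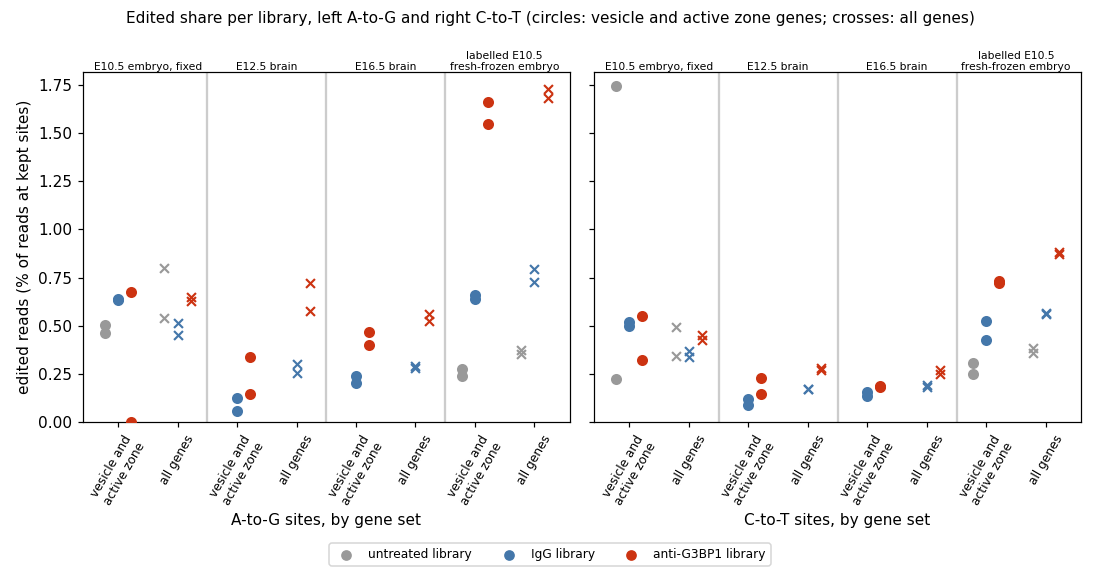
Share of reads edited (vertical axis, % of reads at kept sites) in each library, for A-to-G in the left panel and C-to-T in the right, by table, with circles for the 42 genes and crosses for all genes and colours for untreated, IgG and anti-G3BP1. In the FF-labelled libraries the A-to-G circles of anti-G3BP1 lie at 1.55% and 1.66%, above IgG at 0.640% and 0.660%.

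By gene, the edited share was tested for anti-G3BP1 over IgG with a quasi-binomial model fitted over all genes, with Benjamini-Hochberg adjusted p. Of 36 genes in the FF-labelled libraries 2 were higher and 0 lower, against 1.43% of 7836 genes, and 10 had an unadjusted p under 0.05. The median log2 change was 0.91 over the 36 and 0.91 over all genes tested. The share was higher in both anti-G3BP1 libraries than in both IgG libraries for 24 of 36, where 47.1% of all genes did so, and lower in both for 0 (background 4.48%). In E16.5 brain 8 of 41 genes were higher and 0 lower, against 6.65% of 11741 genes, 14 had an unadjusted p under 0.05, and the medians were 0.57 and 0.65. There 22 of 41 were without overlap above IgG, where 42.1% of all genes were, and 2 were below (background 5.4%). The median gene of the 41 had 22 edited reads in a library, against 7 over all genes tested. In the FF-labelled libraries these medians were 8 and 4. The part of read depth in the share of genes called was not tested. E12.5 brain gave 0 of 20 (background 0.0%, 1 gene at an unadjusted p under 0.05, Syt11) and the fixed embryo 0 of 7 (background 0.0179%, 0 at an unadjusted p under 0.05), and edgeR gave 0 in both.

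Sv2a had the most edited reads of the 42 genes in the FF-labelled libraries. Its edited reads were 4.91% and 5.54% with anti-G3BP1, 1.47% and 2.14% with IgG and 0.301% and 0.603% untreated in the FF-labelled libraries, over 15 sites with 281 edited reads. In E16.5 brain the shares were 0.258% and 0.508% against 0.197% and 0.197%, over 94 sites with 301 edited reads. Anti-G3BP1 was above IgG in every library of both tables, and the anti-G3BP1 replicates of E16.5 brain differed from each other by more than the lower of them did from IgG. The log2 changes were 1.58 ± 0.31 (SE; quasi-binomial, adjusted p = 0.00663) and 1.09 ± 0.24 (SE; adjusted p = 0.000572).

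Rab3a was edited in 3.12% and 4.70% of reads with anti-G3BP1, 1.45% and 0.662% with IgG and 0.331% and 0.155% untreated in the FF-labelled libraries. In E16.5 brain the shares were 0.418% and 0.336% against 0.167% and 0.147%. The groups were apart in both tables, with changes of 1.97 ± 0.48 (SE; quasi-binomial, adjusted p = 0.0389) and 1.21 ± 0.29 (SE; adjusted p = 0.00317). Amph was edited in 0.459% and 0.648% of reads against 0.194% and 0.196% in E16.5 brain (1.58 ± 0.43, SE; adjusted p = 0.0105). In the FF-labelled libraries it was at 1.31% and 2.26% against 0.467% and 0.321%, with 0.179% and 0.188% untreated, and did not pass (2.19 ± 0.64, SE; adjusted p = 0.0884). edgeR on the same edited reads did call it there.

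The other 5 genes called in E16.5 brain had lower shares or fewer reads. Syn1 was edited in 0.180% and 0.158% of reads against 0.0511% and 0.0386% (1.84 ± 0.51, SE; quasi-binomial, adjusted p = 0.0107), and Syt4 in 0.278% and 0.307% against 0.177% and 0.161% (0.79 ± 0.23, SE; adjusted p = 0.0169). Syn1 had the lowest shares of the 8 called genes, and in both genes the replicates lay close together. Dnm3 was at 0.488% and 0.478% against 0.147% and 0.240% (1.38 ± 0.43, SE; adjusted p = 0.0281), Erc1 at 0.316% and 0.358% against 0.154% and 0.0898% (1.43 ± 0.45, SE; adjusted p = 0.0295) and Rims2 at 1.37% and 1.15% against 0.388% and 0.243% (1.89 ± 0.64, SE; adjusted p = 0.0485). Rims2 had the highest share of all 8.

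Other genes with many edited reads did not pass. Pclo in the FF-labelled libraries was at 1.09% and 0.982% against 0.470% and 0.596% (0.93 ± 0.32, SE; quasi-binomial, adjusted p = 0.148), with untreated libraries at 0.510% and 0.543%, in the IgG range. Rab3c was at 1.37% and 1.39% against 0.875% and 0.560% (0.93 ± 0.33, SE; adjusted p = 0.174), Syt11 at 1.15% and 1.25% against 0.509% and 0.665% (1.02 ± 0.38, SE; adjusted p = 0.198), and Syt1 at 0.648% and 0.656% against 0.425% and 0.379% (0.70 ± 0.31, SE; adjusted p = 0.292). In each of these 4 genes both anti-G3BP1 libraries were above both IgG libraries. In E16.5 brain Syt11 was at 0.190% and 0.189% against 0.131% and 0.167% (0.37 ± 0.26, SE; adjusted p = 0.459) and Rab3c at 0.234% and 0.283% against 0.226% and 0.246%, with overlap (0.18 ± 0.27, SE; adjusted p = 0.749).

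**Figure D4:**
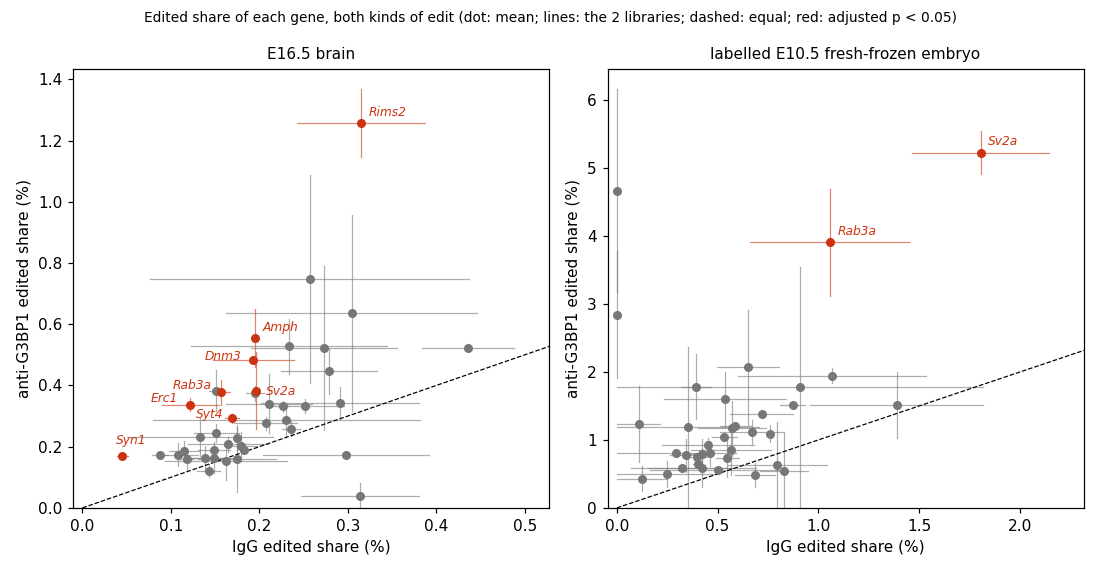
Edited share of each gene with anti-G3BP1 (vertical axis, % of reads) against IgG (horizontal axis, % of reads) for E16.5 brain on the left and the FF-labelled libraries on the right, with dots at the mean, lines to the 2 libraries of each group, a dashed line of equality and red for adjusted p under 0.05. Sv2a and Rab3a are red in both panels, and most dots lie above the line.

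The calls depended on few libraries and on the scale. Leaving out 1 library, so that 1 group has a single library whose spread is taken from the other group, left 0 or 1 gene in both tables, that gene being Sv2a without IgG replicate 2. A-to-G sites alone gave 2 calls in the FF-labelled libraries, Rab3a and Sv2a (background 1.28%), and 5 in E16.5 brain, Amph, Rab3a, Sv2a, Syn1 and Syn2 (background 4.94%), while C-to-T sites alone gave 0 in both (background 0.0% and 0.162%). Tested against the median change of all genes instead of against 0, 0 genes passed in either table. Without the site with most edited reads in each gene, 0 passed in the FF-labelled libraries and 5 in E16.5 brain. Apart from each kind of edit alone, these counts have no share of all genes beside them. Whether the loss of calls is particular to these genes was therefore not tested. The top site held 52.7% of the edited reads of Sv2a in the first table and 44.5% in the second, and 40.4% and 19.7% of those of Rab3a.

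By role, the E16.5 calls were 2 vesicle membrane and synapsin genes (Sv2a, Syn1), 1 synaptotagmin (Syt4), 3 Rab3 and active zone genes (Rab3a, Erc1, Rims2) and 2 endocytosis genes (Amph, Dnm3), with 0 SNARE genes and 0 transporters. The share over all genes was 6.65%, and with so few genes per role no difference between roles is read from these counts. Slc17a6 came closest among transporters in the FF-labelled libraries, at 0.530% and 1.01% against 0.266% and 0.417% (1.27, quasi-binomial, adjusted p = 0.104). Of the other presynaptic genes, 2 of 60 passed there (background 1.43%), Scamp1 (2.91 ± 0.55, SE; adjusted p = 0.00503), a vesicle carrier protein, and Apba1 (2.86 ± 0.69, SE; adjusted p = 0.0365), the Munc18 adaptor Mint1. In E16.5 brain 4 of 65 passed, near the background of 6.65%: Scamp1 (1.16, adjusted p = 0.000159), Apba1 (1.45, adjusted p = 0.0135), Cadps, a priming factor of dense-core vesicles (1.37, adjusted p = 0.00111), and Snap47, a SNAP25 relative (1.001, adjusted p = 0.0415).

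In the fixed embryo 7 genes could be tested, each with at most 24 edited reads over all 6 libraries. The 5 with most were Unc13a (0.41 ± 0.92, SE; quasi-binomial, adjusted p = 0.954), Syt11 (-0.13 ± 1.23, SE; adjusted p = 0.985), Bin1 (0.20 ± 1.081, SE; adjusted p = 0.977), Dnm1 (-1.19 ± 1.48, SE; adjusted p = 0.932) and Vamp2 (1.13 ± 1.44, SE; adjusted p = 0.932). Among these 5 genes no change exceeded its standard error. The median of the 7 was -0.13 against 0.31 over all genes, 0 of 7 were above IgG without overlap (background 21.6%) and 3 were below (background 12.2%).

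In E12.5 brain Syt11 was edited in 0.283% and 0.0984% of reads against 0.0477% and 0.0574% (1.65 ± 0.82, SE; quasi-binomial, adjusted p = 0.826), and Slc17a6 in 0.379% and 0.283% against 0.135% and 0.168% (0.96 ± 1.16, SE; adjusted p = 0.849). These were the 2 of 20 genes above IgG without overlap (background 27.6%), and 0 were below (background 3.41%). Sv2a was at 1.04% and 0.238% against 0.251% and 0.222% (1.22 ± 1.26, SE; adjusted p = 0.826), where 1 anti-G3BP1 library was high and the other lay in the IgG range. Cplx2 (0.63 ± 1.17, SE; adjusted p = 0.918) and Vamp2 (-0.17 ± 0.94, SE; adjusted p = 1.0) overlapped as well. The direct test of the change in the FF-labelled libraries minus that in E16.5 brain gave 0 of 30 genes (quasi-binomial, 2 at an unadjusted p under 0.05), and E16.5 minus E12.5 brain gave 0 of 15 (0 at an unadjusted p under 0.05), both with a background of 0.0%. That a gene passed in one table and not in another is therefore not shown to be a difference between them.

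IgG over untreated gave 0 genes in both E10.5 tables (quasi-binomial, background 0.0%), with 0 of 7 and 10 of 36 at an unadjusted p under 0.05. Of 36 genes in the FF-labelled libraries 18 were higher with IgG in both libraries without overlap (background 31.5%) and 0 lower (background 6.2%), and in the fixed embryo 2 of 7 were higher and 2 lower (background 17.8% and 14.4%). The changes were 2.01 ± 0.51 (SE; adjusted p = 0.28) for Sv2a, 2.08 ± 0.73 (SE; adjusted p = 0.511) for Rab3a, 1.56 ± 0.45 (SE; adjusted p = 0.366) for Syt11, 1.24 for Rab3c, 1.16 for Syt1 and 0.05 for Pclo, and edgeR called Sv2a. For Sv2a and Rab3a the step from untreated to IgG was in its estimate not smaller than the step from IgG to anti-G3BP1 (1.58 and 1.97), and both steps share the IgG libraries. The step from untreated to IgG also included the enzyme and the formaldehyde label.

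The 2 kinds of edit were also compared within genes, as the A-to-G change minus the C-to-T change. By the quasi-binomial test 0 genes differed in any table, with 0 of 2, 3 of 32, 1 of 18 and 5 of 41 at an unadjusted p under 0.05 in the fixed embryo, the FF-labelled libraries, E12.5 brain and E16.5 brain (background 0.0% except 0.0103% in E16.5 brain). The median difference was 0.90 in the FF-labelled libraries, where all genes gave 0.48, and 0.73 in E16.5 brain, where all genes gave 0.56. For Sv2a the changes were 1.80 (adjusted p = 0.00845) for A-to-G and -0.83 ± 1.11 (SE) for C-to-T in the FF-labelled libraries, and 1.27 (adjusted p = 0.0028) and 0.54 in E16.5 brain.

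Most kept sites lay in 3′ UTRs. The 291 A-to-G sites in 3′ UTRs in the FF-labelled libraries were edited in 0.670% ± 0.0410 of reads with IgG and 1.70% ± 0.0614 with anti-G3BP1 (SD, n = 2), with a mean of 0.200% untreated, and 72 coding sites in 0.487% and 1.19%, with 0.590% untreated, above the IgG mean. The 419 C-to-T sites in 3′ UTRs went from 0.445% to 0.734% and the 105 coding ones from 0.561% to 0.758%. In E16.5 brain the A-to-G means were 0.219% and 0.420% over 806 sites in 3′ UTRs and 0.261% and 0.577% over 123 coding sites. C-to-T was at 0.141% and 0.185% over 1615 sites in 3′ UTRs and at 0.17% in both groups over 226 coding sites. The excess with anti-G3BP1 was thus present in both regions for A-to-G, and coding C-to-T sites of E16.5 brain showed none in their means.

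Sites were also grouped by the base before the edited one. In the FF-labelled libraries, adenosines after T were edited with IgG in 0.875% and with anti-G3BP1 in 2.2% of reads, those after C in 0.648% and 1.71%, those after A in 0.503% and 1.26%, and those after G in 0.477% and 0.939%. The ratio was 2.52-fold after T, 2.64-fold after C, 2.51-fold after A and 1.97-fold after G, the lowest of the 4. The untreated mean was 0.176% after T and 0.516% after G, the latter above the IgG mean of the same sites. Cytosines after A went from 0.387% to 0.988% (untreated 0.108%) and after T from 0.347% to 0.791%. Cytosines after C, at 0.606% and 0.462%, and after G, at 0.603% and 0.511%, were lower with anti-G3BP1 in the means. In E16.5 brain the A-to-G ratios were 2.55-fold after T, 2.13-fold after both A and C and 1.21-fold after G. Cytosines there had ratios of 1.56-fold after A, 1.22-fold after T, 0.891-fold after G and 1.10-fold after C. After C the libraries overlapped, at 0.0942% and 0.102% with anti-G3BP1 and 0.0819% and 0.0961% with IgG. After G they overlapped too, at 0.0919% and 0.137% against 0.116% and 0.140%. No direction is read from either.

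At single sites, the shares have 95% Wilson intervals and floors of 3 reads, which cover counting error only, since the reads carry no molecular identifiers. A site was followed where it had at least 20 reads in every library and an edited share in both anti-G3BP1 libraries above both IgG libraries. That order of the groups was the rule by which the sites were chosen and is not a result. Of 318 A-to-G sites in the FF-labelled libraries 48 met this (15.1%, background 14.3%) and 34 of 447 C-to-T sites (7.61%, background 5.5%). In E16.5 brain 72 of 856 A-to-G sites (8.41%, background 8.79%) and 47 of 1733 C-to-T sites (2.71%, background 3.24%) did. E12.5 brain had 2 of 55 and 0 of 126 (background 4.12% and 0.988%), and the fixed embryo 0 of 9 and 0 of 12 (background 2.61% and 1.95%). Of 78 A-to-G sites measured in both the FF-labelled libraries and E16.5 brain, 32 (41.0%) and 31 (39.7%) met the rule and 15 met it in both, which is 46.9% and 48.4% of each. Over all genes 7129 such sites were shared, 36.9% and 32.7% of them met the rule and 1247 met it in both, which is 47.4% and 53.4% of each, so that the share in both was near the background. They lay in Amph, Erc2, Rab3a, Sv2a, Synj1, Syt11, Syt4, Unc13b and Vamp2. For C-to-T 16 and 5 of 83 shared sites met it and 2 met it in both, 1 in Syt1 and 1 in Vamp2, which is 2 of 16 and 2 of 5, where all genes gave 19.3% and 21.6%.

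The most edited site was the last of the 4 Sv2a windows, gagaggttctAcccactagcc. With anti-G3BP1 42 of 260 and 67 of 355 reads were edited there in the FF-labelled libraries, which is 16.2% (12.2% to 21.1%) and 18.9% (15.1% to 23.3%). IgG gave 10 of 247 and 23 of 312 reads, 4.05% (2.21% to 7.29%) and 7.37% (4.96% to 10.8%), and the untreated libraries 3 of 287 and 3 of 263, 1.05% and 1.14%. The intervals of anti-G3BP1 and IgG did not overlap, but the site was named for having the largest A-to-G difference in these libraries. In E16.5 brain it was edited in 20 of 189 and 61 of 418 reads, 10.6% (6.96% to 15.8%) and 14.6% (11.5% to 18.3%), against 31 of 456 and 22 of 324, 6.80% (4.83% to 9.49%) and 6.79% (4.53% to 10.1%). There the first anti-G3BP1 library overlapped with IgG in its interval and the second did not.

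The other Sv2a windows had lower shares. The site of tccttgctctAgagaggttct was edited in 4.80% and 3.45% of reads with anti-G3BP1, 2.05% and 0% with IgG and 0% untreated in the FF-labelled libraries, and in 2.34% and 3.32% against 0.233% and 0% in E16.5 brain. The site of ggctggaggcAgaacccctag was at 3.78% and 6.98% against 0% and 1.48%, and at 1.91% and 2.91% against 0.767% and 0.397%. The site of agccaagagtAgtagtttcag was at 6.91% and 4.56% against 3.93% and 2.51%, and at 1.80% and 4.12% against 0.732% and 0%.

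In Rab3a the coding site of tggatactgcAgaccctgcgg was edited in 11 of 88 and 18 of 128 reads with anti-G3BP1 in the FF-labelled libraries, with intervals of 7.13% to 21.01% for the first and 9.08% to 21.1% for the second (14.1%). IgG gave 2 of 94 and 4 of 93 reads, 2.13% (0.59% to 7.43%) and 4.30% (1.69% to 10.54%). The first anti-G3BP1 interval overlapped with both IgG intervals, and the second with that of the second IgG library only. The untreated libraries gave 0 of 189 and 0 of 181 reads, which allow up to 1.59% and 1.66%. In E16.5 brain it was edited in 7 of 190 and 25 of 370 reads, 3.68% and 6.76%, against 6 of 327 and 2 of 241, 1.83% and 0.830%. The 3′ UTR sites of gggcctgccaAccccgaggct (2.70% and 4.90% against 1.17% and 0%) and aatggggtgtAggggatatat (3.1% and 6.21% against 2.56% and 1.01%) were lower, and in E16.5 brain they were at 1.91% and 1.09% against 0.377% and 0%, and at 2.49% and 1.04% against 0.706% and 0%.

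The Amph site of actagcaactAtgcagtcatc was not seen edited without anti-G3BP1 in the FF-labelled libraries. With anti-G3BP1 7 of 102 and 15 of 159 reads were edited, 6.86% (3.36% to 13.5%) and 9.43% (5.80% to 15.0%). With IgG 0 of 110 and 0 of 99 were edited, with floors of 2.73% and 3.03%, and untreated 0 of 137 and 0 of 169. The Wilson intervals of IgG reached 3.37% and 3.74%, and overlapped with the first anti-G3BP1 interval but not with the second. In E16.5 brain it was edited in 3 of 89 and 11 of 193 reads, 3.37% and 5.70%, against 2 of 196 and 2 of 131, 1.02% and 1.53%. IgG edits were thus present in E16.5 brain. The other Amph site, of gtagctgcccAgctgctcagt, was edited in 1 of 114 and 4 of 140 reads with anti-G3BP1 in the FF-labelled libraries, against 0 of 81 and 0 of 67 with IgG and 0 of 149 and 0 of 142 untreated. In E16.5 brain it was edited in 3 of 101 and 7 of 206 reads against 2 of 207 and 2 of 148.

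**Figure D5:**
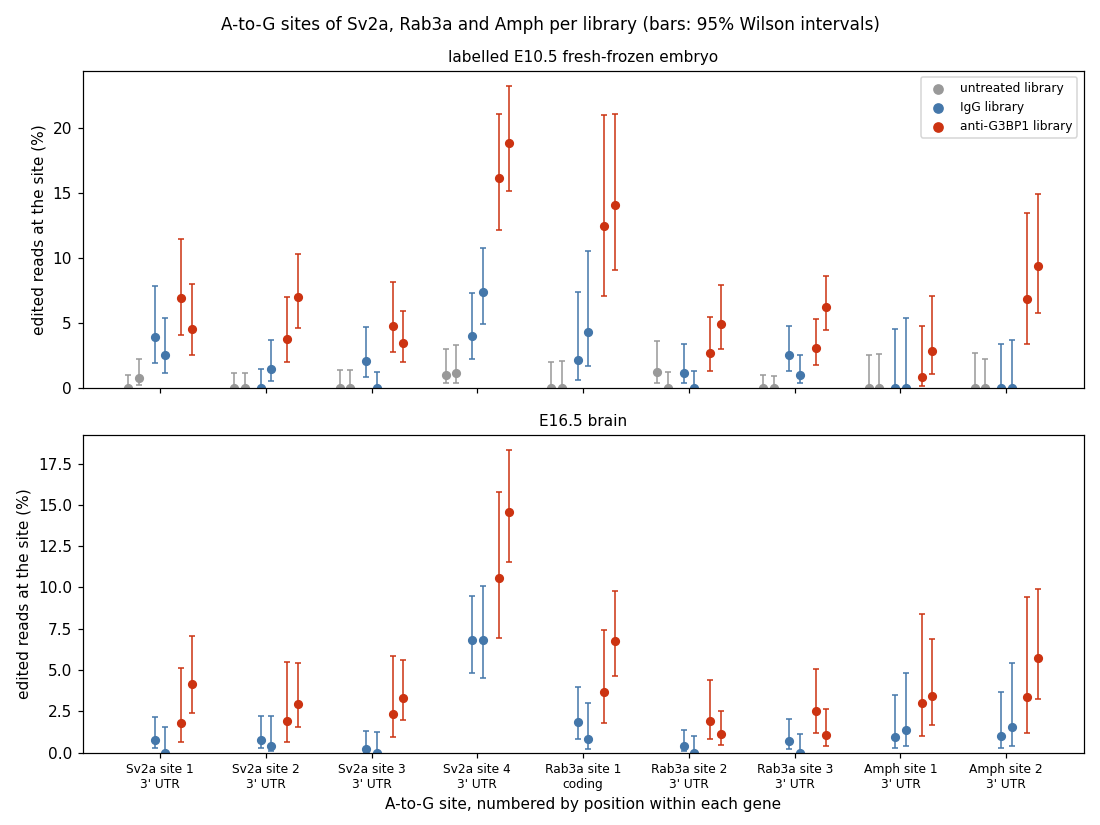
Edited reads (vertical axis, %) at 9 A-to-G sites of Sv2a, Rab3a and Amph (horizontal axis, numbered by position within each gene), 1 point per library with its 95% Wilson interval, for the FF-labelled libraries above and E16.5 brain below. The fourth Sv2a site is the highest in both panels, at 16.2% and 18.9% and at 10.6% and 14.6% with anti-G3BP1.

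The sites with the largest differences among C-to-T edits, and in genes other than these 3, are shown with the edited base in capitals, so that the base before it can be read. Those of Rab3c and Sv2c lie on the minus strand of mm10 and the others on the plus strand. All are in 3′ UTRs except that of Syp, which lies in the coding part of exon 6 of 7 and where the edit changes the encoded amino acid.
Rab3c chr13:110054310-110054330: tcattgtgtaCaaatggtatg
Rab3c chr13:110054208-110054228: ttgaagattaCaataaatatc
Syn2 chr6:115276129-115276149: tattgcttctCtgcatgttat
Syn2 chr6:115275316-115275336: accattccccAggcttcttag
Rims2 chr15:39682256-39682276: gggctccagcAgggagagcgg
Rims2 chr15:39682763-39682783: gtctgtctcaCttttcttctc
Sv2c chr13:95954800-95954820: cactaaaagtCccgagacggc
Syp chrX:7648617-7648637: acaggctgggCcgccccattc

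Both Rab3c sites, in exon 5 of 5, had no edited read in the 2 IgG and 2 untreated FF-labelled libraries. The first was edited in 6 of 97 and 8 of 262 reads with anti-G3BP1, 6.19% and 3.05%, against 0 of 220 and 0 of 128, and the second in 2 of 50 and 5 of 124 reads against 0 of 102 and 0 of 49. Both have an A before the edited C. The C-to-T site of Syn2 was edited in 2 of 26 and 2 of 47 reads, 7.69% and 4.26%, against 0 of 29 and 0 of 48, which rests on 4 reads in all.

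In E16.5 brain the A-to-G site of Syn2 was edited in 2 of 37 and 2 of 46 reads, 5.41% and 4.35%, against 0 of 78 and 0 of 33, and that of Rims2 in 2 of 42 and 4 of 59, 4.76% and 6.78%, against 0 of 64 and 0 of 47. The Rims2 C-to-T site was edited in 2 of 24 and 1 of 21 reads, 8.33% and 4.76%, against 0 of 25 and 0 of 33. The sites of Syp, at 2 of 33 and 1 of 70 reads against 0 of 89 and 0 of 56, and of Sv2c, at 2 of 51 and 2 of 177 against 0 of 188 and 0 of 133, had as few edited reads. None of these sites had an IgG edit, and each rests on 3 to 6 edited reads.

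Syt11 held the only sites that met the rule in E12.5 brain, both in the 3′ UTR in exon 5 of 5 on the minus strand, and the first of them met it in E16.5 brain too. They are shown because they are the only ones at that stage.
Syt11 chr3:88745925-88745945: aggcagccccActgtgctctt
Syt11 chr3:88745949-88745969: aaggcagagcAgtgctgtaca

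The first was edited in 3 of 83 and 1 of 90 reads with anti-G3BP1 in E12.5 brain, 3.61% and 1.11%, against 0 of 40 and 0 of 141 with IgG. In the FF-labelled libraries it was at 2.84% and 3.92% against 1.46% and 2.46%, with 0% in both untreated libraries, and in E16.5 brain at 2.19% and 1.72% against 1.49% and 0.330%. The second was edited in 1 of 79 and 2 of 94 reads, 1.27% and 2.13%, against 0 of 32 and 0 of 135 in E12.5 brain. It met the rule in the FF-labelled libraries as well, with 10 of 179 and 11 of 237 reads, 5.59% and 4.64%, against 0 of 118 and 3 of 124 with IgG and 0 of 203 and 0 of 226 untreated. In E16.5 brain it did not meet the rule, with 4 of 186 and 9 of 451 reads, 2.15% and 2.00%, against 9 of 409 and 2 of 300, 2.2% and 0.667%, and the groups overlapped.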

How the data were processed

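Expression values were deposited by the authors as TPM per gene in 4 tables, which each sum to 1000000 per library. Edited sites were deposited by the authors as read counts, edited and total, per site and library in 4 tables. The submitters' processing notes name BWA 0.7.17, HISAT2 2.2.1, GATK 4.5.0.0, Picard 3.1.1, featureCounts 2.0.1 and Subread, and mm10 (GRCm38). Which step used which of them, and how sites were chosen for listing, is not given in the sources used here. In most libraries sites with exactly 1 edited read were rarer than sites with exactly 2.

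The 42 genes and the gene lists were chosen with earlier results of these data known. Samples were grouped by their titles, and no column was left unmapped. Repeated lines were removed. Read counts were summed per gene over sites where every library of a table had at least 10 reads, and genes with at least 50 such reads were tested, in a quasi-binomial model (R 4.3.3, 0.25 reads added to edited and to unedited reads, limma 3.58.1 squeezing dispersions along a trend, with a floor of 1). TPM was tested with limma on log2(TPM + 1) in genes with 1 TPM or more in 2 libraries. For comparisons between tables, TPM was first rescaled to 1000000 over shared genes. All tests were two-sided with Benjamini-Hochberg adjustment over all genes and a threshold of 0.05, in 21 comparisons (12 of editing, 9 of expression). Both fits were tested on simulated data. With 200 genes changed by a log2 of 2, the share called was for editing 73.0% (fixed embryo), 91.0% (FF-labelled libraries), 23.5% (E12.5) and 81.5% (E16.5), and 93.5% for expression in E16.5 over E12.5 brain. Unchanged genes called numbered 1, 7, 0, 9 and 11 in that order. The changed genes were drawn for editing from those at or above the median of edited reads, with an assumed small spread between libraries. For expression they were drawn from genes above a minimum mean level. The shares therefore do not hold for genes with fewer reads, which many of the 42 were in the fixed embryo and E12.5 brain.

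Full statistics were given for every gene called in an editing comparison and the 5 with most edited reads, and, in comparisons between tables, for up to 3 genes per role with the largest change among called genes with 10 TPM or more and no overlap, and for called genes against the majority. Of the other presynaptic genes the 2 with the largest change per comparison between tables were named, except 1 that is not reported here. Sites named were the 3 per table and kind with the largest difference in mean share among those with 20 or more reads, both anti-G3BP1 libraries above both IgG libraries. Sites that met this in both the FF-labelled libraries and E16.5 brain were shown for Sv2a and Rab3a, called in both, and for Amph, called in E16.5 brain only. These sites, and genes named as not called, were chosen after their values were seen. Sequence windows were read from transcripts of GENCODE M21, and 4339 of 4339 site bases matched. No genome sequence was used here. Alternatives were edgeR 4.0.16, limma on empirical logits, other filters and scalings, each kind of edit alone, the replicate block, each replicate left out, and 2 added after seeing the data (without the top site of each gene, and sites with 1 alternative allele). Python 3.11.15, pandas 2.3.3, numpy 2.4.6, scipy 1.17.1 and matplotlib 3.10.9 were used for the rest.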

Additional observations from a re-analysis of the deposited data

How the results depend on the processing

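Replicate numbers did not pair the samples, since deviations from the group means correlated by -0.0399 to 0.0390 between same-numbered libraries. With the replicate block, 0 genes were called in the FF-labelled libraries for editing, 8 in E16.5 brain (Sh3gl2 in place of Rims2), and 0 higher and 0 lower for the level of IgG over untreated.

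For editing in the FF-labelled libraries, 20 reads per site and 20 reads per gene each gave 1 called gene, and C-to-T sites alone, the median change as null, limma on logits and leaving out the top site each gave 0. In E16.5 brain A-to-G sites alone gave 5 and leaving out the top site 5, and C-to-T sites alone, the median change and logits each gave 0. Leaving out 1 library gave 0 to 1 in both. The sites with 1 alternative allele gave 6 in E16.5 brain. Apart from each kind of edit alone, no share of all genes was set beside these counts. edgeR gave 1 gene for IgG over untreated. In comparisons of levels, leaving out 1 library gave 33 to 35 higher (E12.5 brain over fixed embryo), 36 to 40 higher and 0 to 1 lower (E16.5 over E12.5 brain), and 18 to 21 higher and 10 to 12 lower (FF-labelled libraries over E16.5 brain). Rescaling without mitochondrial and haemoglobin genes gave 1 lower in E16.5 over E12.5 brain. For IgG over untreated, log2(TPM + 0.1) and no filter each gave 2 higher and 0 lower, a 5 TPM filter gave 5 lower, and leaving out 1 library gave 0 to 2 higher and 0 to 4 lower. Other comparisons of this kind kept 0 calls.

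The directions below reversed, and the cause was not tested. For anti-G3BP1 over IgG in the fixed embryo, Unc13a gave -0.52 on logits, Syt11 1.01 on logits, 0.028 by edgeR and 0.26 without its top site, and Bin1 -0.0059 with 20 reads per site, -0.0104 by edgeR, -0.11 against the median and -0.23 without its top site. In the FF-labelled libraries Sv2a gave -0.83 from C-to-T sites and Syt1 -0.21 against the median. In E12.5 brain Vamp2 gave 1.81 from C-to-T sites, 0.11 on logits and 0.0060 by edgeR, and Cplx2 -2.85 with 20 reads per site, -0.29 from A-to-G sites, -0.0059 without its top site and -1.18 from sites with 1 allele. In E16.5 brain Syt11 gave -0.0557 from C-to-T sites and -0.28 against the median, and Rab3c -0.47 against the median. For IgG over untreated in the fixed embryo, Unc13a gave -0.0557 with 20 reads per site, -0.0332 from A-to-G sites, -0.31 by edgeR and -0.13 without its top site, Bin1 -0.15 with 20 reads per site and on logits, -0.59 from A-to-G sites and -0.12 with the replicate block, and Vamp2 1.21 with 20 reads per site. Pclo gave -0.67 against the median in the FF-labelled libraries.

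Leaving out 1 library moved the change of Unc13a from -3.72 to 1.32, of Syt11 from -0.72 to 3.47 and of Bin1 from -0.66 to 1.10 in the fixed embryo, and of Vamp2 from -0.60 to 0.86, Sv2a from -0.0117 to 2.01 and Cplx2 from -0.45 to 1.23 in E12.5 brain. For IgG over untreated it moved Unc13a from -1.70 to 3.89, Bin1 from -1.29 to 1.28 and Dnm1 from -2.54 to 3.28 in the fixed embryo, and Pclo from -0.15 to 0.19 in the other table.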
